A study of Naumovozyma castellii with 10 samples.

Results

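XUT0525 and XUT0526 are long non-coding RNAs (lncRNAs) annotated on opposite strands of the same stretch of chromosome 3 of the budding yeast Naumovozyma castellii. They were taken by name from the deposited table and are 2 of 8407 annotated features and 2 of 1021 XUTs, the lncRNAs that accumulate when the cytoplasmic exonuclease Xrn1 is missing. The pair was selected on its nearly complete overlap on opposite strands and on its densities in these same libraries, which were known from earlier results, so its overlap and levels are given as a description and the p-values of its changes are no independent support.

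N. castellii has kept RNA interference, which Saccharomyces cerevisiae has lost. In this pathway the RNase III enzyme Dicer cuts double-stranded RNA into small interfering RNAs, which are then bound by Argonaute. Transcripts that run in opposite directions through one locus can pair into such double-stranded RNA, and each strand then gives small RNAs of its own. Nonsense-mediated decay (NMD) is a cytoplasmic route that removes RNAs in a way that depends on translation and on the helicase Upf1, and lncRNAs that reach ribosomes are among its known targets.

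Small RNAs were sequenced from 5 groups with 2 biological replicates each. All strains carried MATalpha, ura3-1 and ho. The groups were the wild type (WT, strain YAM2478), a upf1::kanMX6 mutant (upf1, YAM2890), a mutant with dcr1 and upf1::kanMX6 (dcr1 upf1, YAM2943), the wild type after cycloheximide, a drug that blocks translation (WT CHX), and a dcr1 mutant after the same drug (dcr1 CHX, YAM2795). Each genotype was represented by a single strain, the dcr1 allele is not described further in the labels, and an untreated dcr1 single mutant is not among the groups. Cultures in YPD at 25 °C were taken at an OD600 of 0.5, and drug-treated cells had 15 min of 100 µg/mL cycloheximide.

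The values are densities, meaning reads per nucleotide of a feature scaled by the authors to a spike-in of Schizosaccharomyces pombe small RNAs. Reads recovered from them summed over all features to between 3169072 and 6904640 in the 6 libraries with Dicer and to between 129559 and 148330 in the 4 without it. Replicates correlated across features with a Pearson r of 0.899 to 0.965. NAM7, the gene for Upf1, had 0 reads in the 4 libraries labelled upf1 and between 3 and 45 in the other libraries. The gene table used has no entry under the name DCR1, and the loss of that gene was not checked.

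XUT0525 runs on the minus strand from 1160280 to 1161794 (1515 nt), and XUT0526 on the plus strand from 1160417 to 1161890 (1474 nt), in the coordinates of the deposited table. They share 1378 nt, which is 91.0% of XUT0525 and 93.5% of XUT0526. The annotated beginning of each lies inside the other, and XUT0525 reaches 137 nt and XUT0526 96 nt past the beginning of its partner. No mRNA is annotated within either interval. The table lists XUT0525 a second time under the name DUT0006, a lncRNA class with 10 members among the XUTs, while XUT0526 has no such entry.

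**Figure D1:**
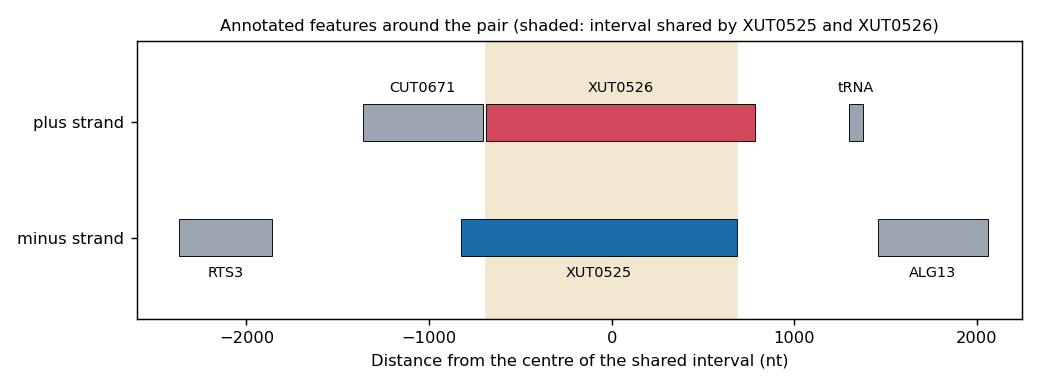
Map of the pair and its nearest annotated neighbours on each strand, with the distance in nt from the centre of the shared interval on the horizontal axis and the strand on the vertical axis. The shaded interval of 1378 nt is common to both XUTs, and CUT0671 faces 119 nt at the far end of XUT0525.

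The neighbours carried very few small RNAs. CUT0671, a cryptic unstable transcript on the plus strand (1159742 to 1160398), faces 119 nt of XUT0525 and ends 18 nt before XUT0526 begins. It held 3 and 1 reads in WT, 4 and 1 in upf1, and 0 and 3 in WT CHX, or 12 reads over the 6 libraries in which XUT0526 held 386804 and XUT0525 1137187. Plus-strand small RNAs were therefore dense over XUT0526 and nearly missing just before its annotated beginning, also where XUT0525 lies opposite. The deposited table gives 1 value per feature, so where reads lie within each XUT is not known. The sources do not state that the counting used strand. The values were read as strand-specific, because XUT0525 and XUT0526, which share most of one interval, had different densities in every library. This was not checked for every other pair, and some carry no reads.

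Farther out the density stayed low as well. RTS3, the closest gene on the minus strand at 1033 nt to the left, had a density between 0.00448 and 0.0667 in the libraries with Dicer. ALG13, which encodes a subunit of the enzyme for the second sugar of N-linked glycans and lies 672 nt to the right, had 0.0201 to 0.0399. A tRNA on the plus strand 515 nt to the right had 0.0102 to 0.0721, from at most 11 reads in these libraries. CHO2, a phosphatidylethanolamine methyltransferase gene and the nearest on the plus strand to the left, had 0.00134 to 0.0181.

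XUT0525 was among the densest sources of small RNA in the genome. Its density was 77.2 and 78.5 in the WT libraries, 83.0 and 76.6 in upf1, and 97.0 and 87.7 in WT CHX. WT and upf1 overlapped, and both WT CHX libraries lay above all 4 others. The dcr1 upf1 libraries had 0.131 and 0.163, and the dcr1 CHX libraries 0.234 and 0.209. These 4 values all lay far below those of every library with Dicer. Among all features XUT0525 ranked between 5 and 9 in the 6 libraries with Dicer.

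XUT0526 was lower than its partner in 10 of 10 libraries. Its density was 28.6 and 26.4 in WT, 22.8 and 19.0 in upf1, and 43.5 and 36.2 in WT CHX. None of these 3 groups overlapped, with upf1 lowest and WT CHX highest. For either member, how many other features separate in this way with 2 libraries per group was not counted. The dcr1 upf1 libraries had 0.0424 and 0.0650, and the dcr1 CHX libraries 0.0832 and 0.0818. XUT0526 ranked 13 to 14 among all features in WT and WT CHX but 24 to 25 in upf1. Counting error was small beside the spread between replicates in the libraries with Dicer, at 0.204% to 0.261% for XUT0525 and 0.339% to 0.492% for XUT0526, and reached 7.47% without Dicer.

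**Figure D2:**
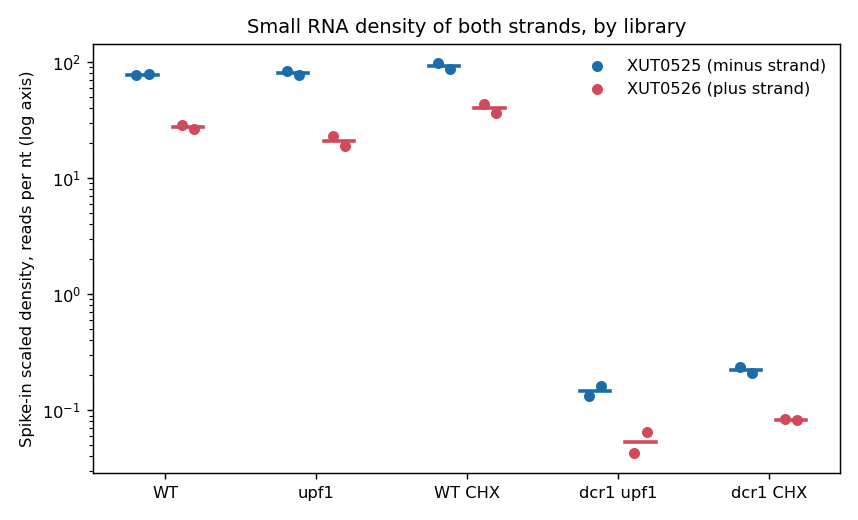
Spike-in scaled density of XUT0525 (blue) and XUT0526 (red) in reads per nt on a log axis, with 1 point per library and a bar at the mean of the 2 libraries of each of the 5 groups. XUT0525 lies above XUT0526 in every library, and all 4 libraries without Dicer lie below 0.25.

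Summed over both strands, the pair had a density of 105.8 and 104.9 in WT, 105.8 and 95.6 in upf1, and 140.5 and 123.8 in WT CHX. Its share of all reads over features was 7.92% and 8.15% in WT, 3.38% and 3.07% in upf1, and 6.66% and 6.62% in WT CHX. The density was thus much alike in WT and upf1 while the share of reads was lower in upf1, where the reads summed over other features were more numerous.

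The effect of losing UPF1 was asked by comparing upf1 with WT. XUT0525 had a mean density of 79.8 ± 4.52 in upf1 and 77.8 ± 0.915 in WT (SD, n = 2 each), a log2 fold change of 0.03 with a 95% interval of -0.19 to 0.26 (limma adjusted p = 0.786). XUT0526 fell, from 27.5 ± 1.54 to 20.9 ± 2.67 (SD, n = 2 each), a log2 fold change of -0.40 (SE 0.13, limma adjusted p = 0.0369), and was lower in both upf1 libraries than in either WT library. Across the table of 7872 features tested, 4549 were called higher (57.8%) and 50 lower (0.635%), and XUT0526 was one of these 50. A call depends on the spread as well as on the size of a change, and 305 features had a lower log2 fold change than XUT0526. In bulk RNA, fewer cells making a small RNA and less of it per cell cannot be told apart. The call of XUT0526 ended without upf1 replicate 2 (log2 -0.27, limma adjusted p = 0.210), without WT replicate 1 (-0.34, adjusted p = 0.192), without WT replicate 2 (-0.46, adjusted p = 0.0989) and when all 10 libraries were fitted (adjusted p = 0.153).

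Most lncRNAs moved the other way in this comparison. Of 950 XUTs tested, 748 were higher and 5 lower. Their median log2 fold change was 2.15, and that of all features tested was 1.19. XUT0525 lay 1.16 and XUT0526 1.59 log2 units below that overall median. Of all features, 10.9% had a lower fold change than XUT0525 and 3.87% a lower one than XUT0526. The 20 densest lncRNAs, a list made after the values were seen and with overlapping annotations among them, had a median of 0.86 and ranged from -0.40 to 2.74, and XUT0526 was the lowest of them. When each library was scaled to its median mRNA instead of the spike-in, the median of all features was 0.05 and the log2 fold changes were -1.37 for XUT0525 (limma adjusted p = 6.17e-06) and -1.81 for XUT0526 (adjusted p = 1.86e-05). That median mRNA density was 0.0187 and 0.0181 in upf1 against 0.00698 and 0.00691 in WT, so this reference itself changed.

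Cycloheximide, which stops translation and with it NMD, was compared with no treatment in the wild type. XUT0526 rose from 27.5 ± 1.54 to 39.8 ± 5.17 (SD, n = 2 each), a log2 fold change of 0.53 (SE 0.13, limma adjusted p = 0.00966). XUT0525 had 92.3 ± 6.61 with CHX, a log2 fold change of 0.24 with a 95% interval of 0.02 to 0.47, which did not pass the test after adjustment (limma adjusted p = 0.0509). Both were higher in each CHX library than in each WT library. Of all features tested 6070 were called higher (77.1%) and 13 lower, so the rise of XUT0526 was the common outcome, and it was smaller than the median feature's log2 fold change of 1.502.

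The XUTs as a class had a median log2 fold change of 1.41 with CHX, with 734 of 950 higher and 0 lower by limma. The 20 densest lncRNAs ranged from 0.05 to 0.78, with a median of 0.501, so XUT0526 lay near the middle of that list. XUT0525 lay near its lower end, with 18 of the 20 above it. The direction of both members depended on the scaling. The median mRNA density, which served as a reference, was 0.0286 and 0.0255 in WT CHX against 0.00698 and 0.00691 in WT. XUT0526 was at 0.11 (limma adjusted p = 0.572) and XUT0525 at -0.17 (adjusted p = 0.280) when libraries were scaled to the sum of tRNA, rRNA and snoRNA, and scaling to the median mRNA turned them to calls in the opposite direction, at -1.43 (adjusted p = 0.000298) and -1.71 (adjusted p = 6.72e-05), where the median of all features was -0.14. The call of XUT0526 also ended without WT CHX replicate 1 (0.39, adjusted p = 0.0545), without WT replicate 2 (0.47, adjusted p = 0.0718) and with all 10 libraries (adjusted p = 0.0553). That of XUT0525 was gained without WT CHX replicate 2 (0.32, adjusted p = 0.0295).

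WT CHX and upf1 were also compared directly, since both comparisons above share the WT libraries. XUT0526 was 1.90 ± 0.286 times as dense in WT CHX as in upf1 (SD over the 4 pairs of libraries), a log2 difference of 0.93 (SE 0.13, limma adjusted p = 0.00172), and the groups did not overlap. For XUT0525 the log2 difference was 0.21 with a 95% interval of -0.02 to 0.44 (limma adjusted p = 0.115). With mRNA-median scaling XUT0525 was instead called lower in WT CHX (-0.34, limma adjusted p = 0.00170), and a weighted fit of reads called it higher (voom in limma, chosen after the data were seen, adjusted p = 0.00627). Here 1904 features were called higher in WT CHX (24.2%) and 1717 lower (21.8%). The XUT class leaned towards upf1, with a median of -0.76, 84 of 950 higher in WT CHX and 456 lower. XUT0526 was on the opposite side from most XUTs, and it had the highest value of the 20 densest lncRNAs, whose median was -0.42, followed by XUT0525. The difference of XUT0526 kept its sign and its call under all 12 alternatives tried, with values from 0.38 to 1.06. The number of features called fell from 3621 to 2356 without WT CHX replicate 1.

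**Figure D3:**
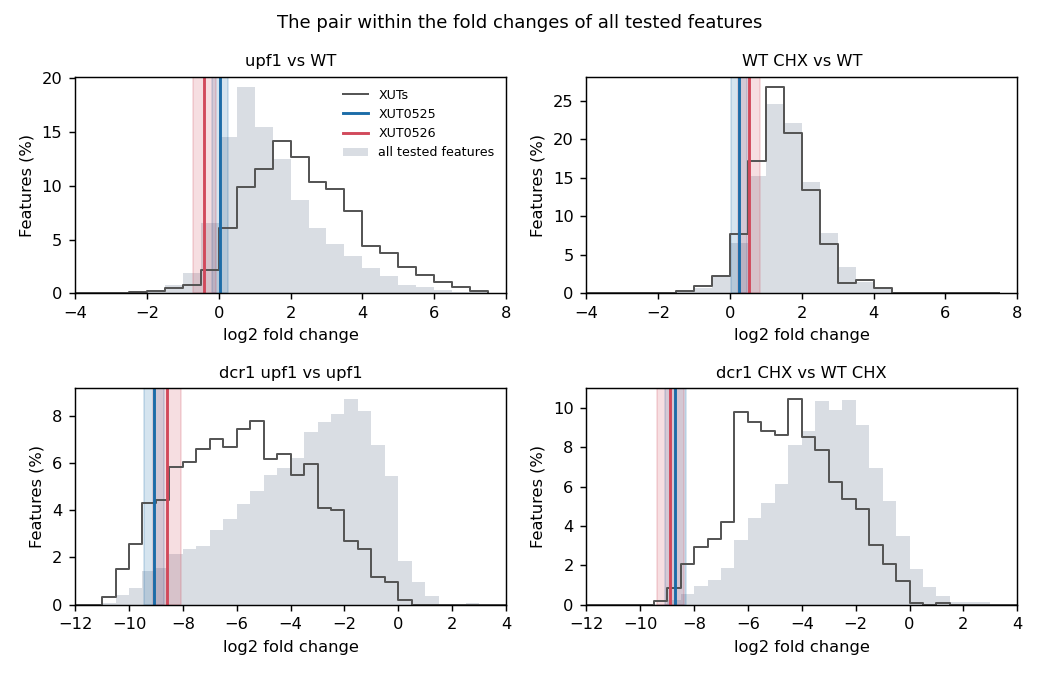
Distribution of log2 fold changes with spike-in scaling in upf1 against WT, WT CHX against WT, dcr1 upf1 against upf1 and dcr1 CHX against WT CHX, as the percent of all tested features (grey bars) and of XUTs (dark line) in bins of 0.5, with vertical lines for XUT0525 (blue) and XUT0526 (red) and bands for their 95% intervals. Both members lie to the left of most features and XUTs in these 4 panels, and WT CHX against upf1 is not drawn.

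Whether the small RNAs of the pair needed Dicer was asked in the upf1 background and in CHX-treated cells. XUT0525 had 0.184% ± 0.0242 of its upf1 density in dcr1 upf1, which is 542-fold lower (log2 -9.08, SE 0.17, limma adjusted p = 9.26e-10), and 0.240% ± 0.0210 of its WT CHX density in dcr1 CHX, 416-fold lower (log2 -8.69, SE 0.17, limma adjusted p = 3.89e-09). XUT0526 had 0.257% ± 0.0687 of its upf1 density, 389-fold lower (log2 -8.59, SE 0.22, limma adjusted p = 1.84e-09), and 0.207% ± 0.0223 of its WT CHX density, 482-fold lower (log2 -8.88, SE 0.22, limma adjusted p = 6.43e-09). Errors of these percentages are SDs over the 4 pairs of libraries. Both members fell in both comparisons, as did most of the 7704 features tested: 6467 were called lower in the upf1 background (83.9%) and 6719 in CHX-treated cells (87.2%).

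In CHX-treated cells the pair had some of the largest falls of the table. There only 4 features had a lower log2 fold change than XUT0526 and 6 a lower one than XUT0525, while the median XUT was at -4.52 and the median feature at -3.05. In the upf1 background the medians were -5.70 and -3.11, and 292 and 183 features had lower values than XUT0526 and XUT0525. Fold changes of sparse features are bounded by the pseudocount of 0.00148, and those of dense features are not. Among the 20 densest lncRNAs the medians were -9.50 in the upf1 background, where XUT0526 had the smallest loss, and -8.37 with CHX, where XUT0526 had the largest. With mRNA-median scaling the losses of the members were between -4.37 and -5.25. The median mRNA density itself was 0.000920 and 0.00102 in dcr1 upf1 against 0.0187 and 0.0181 in upf1. It was 0.00200 and 0.00230 in dcr1 CHX against 0.0286 and 0.0255 in WT CHX, so on the spike-in scale this reference fell as well.

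Reads that remained without Dicer were enough to count. XUT0525 held 570 and 707 reads in the dcr1 upf1 libraries and 671 and 642 in those of dcr1 CHX. XUT0526 held 179 and 275 in the former and 232 and 244 in the latter. The pair made up 0.578% to 0.693% of all reads over features in these libraries. Of the reads over lncRNAs alone the pair made up 9.70% and 9.97% in WT. That share was 5.13% and 5.36% in dcr1 upf1 against 4.52% and 4.14% in upf1, so it was higher without Dicer. In dcr1 CHX it was 4.30% and 5.03% against 8.82% and 8.76% in WT CHX, so it was lower there. Among all features XUT0525 ranked only 104 to 120 and XUT0526 186 to 233 in the libraries without Dicer. Among XUTs alone XUT0525 ranked 4 to 6 without Dicer, against 3 to 6 in the libraries with Dicer.

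The balance between the strands was followed as the ratio of the density of XUT0525 to that of XUT0526, in which the library scaling cancels. It was 2.70 and 2.97 in WT against 3.64 and 4.02 in upf1, while WT CHX had 2.23 and 2.42. These groups did not overlap: upf1 lay above WT and WT CHX below it. How many other pairs separate in this way was not counted. Without Dicer the ratio was 3.10 and 2.50 in the double mutant and 2.81 and 2.56 in dcr1 CHX, which overlapped each other and WT. As a share of reads, the minus strand took 74.4% ± 1.29 in WT, 79.7% ± 1.15 without UPF1 and 70.5% ± 1.22 with CHX (SD, n = 2 each).

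**Figure D4:**
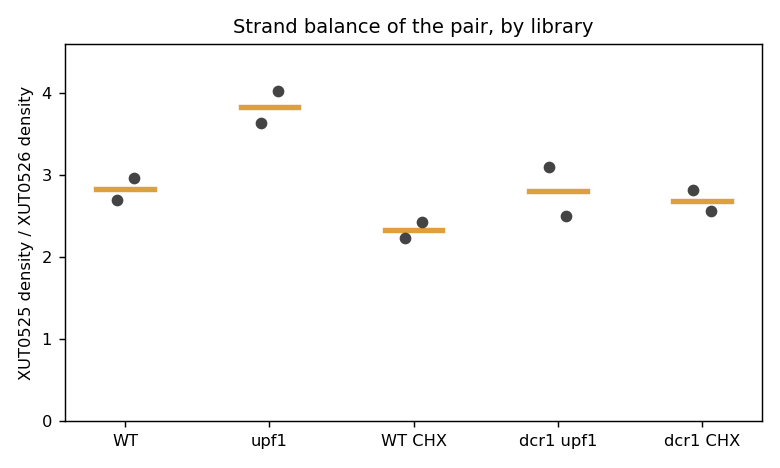
Ratio of XUT0525 to XUT0526 density in each library (points) with the mean of each group of 2 (bars), on a linear axis from 0. The ratio is highest in upf1 (3.64 and 4.02) and lowest in WT CHX (2.23 and 2.42), and the groups without Dicer overlap with WT.

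Changes of this ratio were tested over all opposite-strand lncRNA pairs, meaning 2 lncRNA annotations whose shared interval covers at least 80% of the shorter one. The shift towards the minus strand in upf1 was a log2 of 0.43 with a 95% interval of -0.11 to 0.98 (limma adjusted p = 0.311), and that towards the plus strand with CHX was -0.28 with an interval of -0.83 to 0.26 (limma adjusted p = 0.513). WT CHX differed from upf1 by -0.72, with an interval of -1.26 to -0.17 before adjustment (limma adjusted p = 0.168). The median absolute change over the 109 pairs tested was 0.565 in upf1 and 0.539 with CHX, larger than the shifts of this pair. Between WT CHX and upf1 that median was 0.473, smaller than the shift of this pair. None of the 3 shifts passed the test, although that between WT CHX and upf1 did with a pseudocount 10 times larger (adjusted p = 0.0347). Few pairs passed: 2 of 109 (1.83%) in upf1, 1 (0.917%) between WT CHX and upf1, and 0 with CHX (0.00%) by limma, where 13 had an unadjusted p under 0.05. These counts depended on the setting: the larger pseudocount gave 24 pairs in upf1 and 25 between WT CHX and upf1, fitting all 10 libraries gave 11 in upf1, and leaving out a replicate gave 0 to 6 in upf1 (6 without WT replicate 1, and 0 without WT replicate 2 or either upf1 replicate). Most of these pairs were sparse, and the spread in the fit is drawn towards theirs. When the expected spread was instead allowed to follow the density of a pair, a setting chosen after the data were seen, the shift in upf1 (adjusted p = 0.0259) and the difference between WT CHX and upf1 (adjusted p = 0.00311) passed and that with CHX did not (adjusted p = 0.168).

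Loss of Dicer moved the balance by a log2 of -0.48 in the upf1 background (interval -1.08 to 0.11, limma adjusted p = 0.192) and by 0.19 in CHX-treated cells (interval -0.41 to 0.79, limma adjusted p = 0.682). Of 106 pairs, 27 (25.5%) and 25 (23.6%) were called in these comparisons. Fits of only the 2 compared groups called 40 of 105 pairs in the upf1 background and 13 of 98 in CHX-treated cells. A pseudocount 10 times smaller gave 9 in each and one 10 times larger 61 and 43, mRNA-median scaling gave 8 in CHX-treated cells, and in the upf1 background 15 were called without dcr1 upf1 replicate 1 and 17 without upf1 replicate 2. The shift in the upf1 background passed with the spread following density (adjusted p = 0.00468) and with a pseudocount 10 times larger (-0.68, adjusted p = 0.00293).

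The pair stood out among the 117 opposite-strand lncRNA pairs by its level on both strands. Averaged over the 6 libraries with Dicer, XUT0525 had a density of 83.3 and XUT0526 of 29.4, and their sum of 112.7 was the highest of all pairs, whose median sum was 0.0778. Only 3 pairs had a density of at least 1 on both strands, and the next highest value on a weaker strand was 7.91. Besides this pair they were XUT0655 and CUT0871, nearly the same interval, each paired with the same plus-strand transcript. The 117 pairs are made of 199 distinct features, so some features occur in several pairs. The stronger strand of this pair was 2.83 times as dense as the weaker one, against a median of 1.77 (quartiles 1.25 and 2.73) among the 113 pairs with reads on both.

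**Figure D5:**
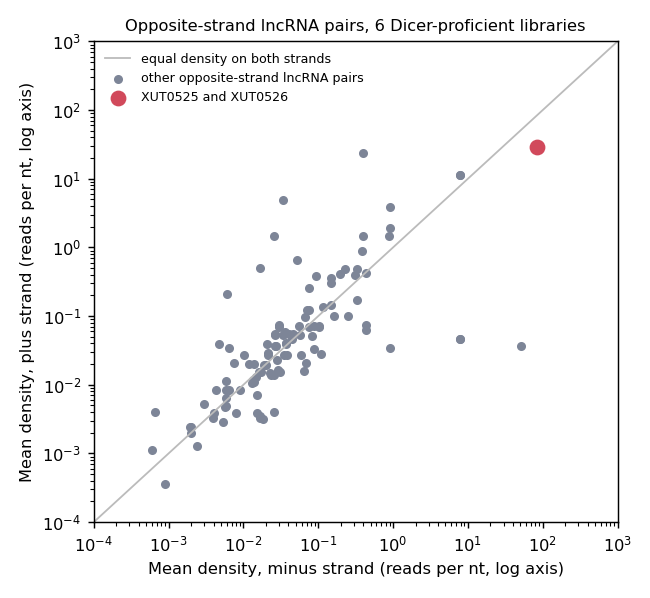
Mean density over the 6 libraries with Dicer on the minus strand (horizontal) and the plus strand (vertical) of opposite-strand lncRNA pairs, both in reads per nt on log axes, with 1 point per pair and a grey line at equal density. The pair XUT0525 and XUT0526 (red) lies at 83.3 and 29.4, at the upper right.

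The other dense pairs differed in how the strands compared. XUT0480 and XUT0481, on the same chromosome, had 51.3 on the minus strand and 0.0361 on the plus strand, and XUT0242 had 23.6 on its plus strand with 0.392 on the opposing XUT0243. Nearest to a balanced pair was XUT0655 with SUT106, a stable unannotated transcript, at 7.91 and 11.2 (CUT0871 is nearly the same interval as XUT0655). In upf1 that pair behaved unlike XUT0525 and XUT0526, as XUT0655 rose (log2 1.33, SE 0.10, limma adjusted p = 3.05e-05) and SUT106 rose with it (log2 1.21, SE 0.11, limma adjusted p = 6.86e-05). XUT0480, with a log2 of 0.05 in upf1 (SE 0.10, limma adjusted p = 0.683) and 0.05 with CHX (SE 0.10, limma adjusted p = 0.670), was not called in either.

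Over the 10 libraries the profile of XUT0525 was most like that of XUT0480 (Pearson r = 0.9998 on the log2 scale). NCAS_0A05800, XUT0860, XUT0651 and XUT0242 followed, all with r of 0.999 or more. XUT0526 was most like the mRNA strands of ELA1, an Elongin A homologue (r = 0.9985) and NCAS_0E01700 (0.998), with XUT0525 next (0.9983), then XUT0860 and NCAS_0A05800. All these values are dominated by the gap between libraries with and without Dicer. Of 7703 features compared, 18.8% had an r above 0.95 with XUT0525 and 17.1% with XUT0526. ELA1 and NCAS_0E01700 shared with XUT0526 a lower mean density in upf1 than in WT and a higher one with CHX (0.0616, 0.0545 and 0.0897 for ELA1, and 0.0577, 0.0477 and 0.0836 for NCAS_0E01700, in WT, upf1 and WT CHX), at far lower levels. Both were picked for their likeness to XUT0526 over these same libraries, so the shared pattern is no separate support.

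Small RNAs on the mRNA strands of NMD and decay genes were read from the same fits. Of 8 genes listed, 6 were matched by symbol. The RNA interference genes DCR1 and AGO1 were not matched, so no gene of that pathway was read. In upf1, 3 of the 6 were higher, against 57.8% of all features, and 0 lower by limma: the Upf1 partner gene NMD2 (log2 1.42, SE 0.24), UPF3 (2.19, SE 0.32) and DCP1 (0.83, SE 0.12), an activator of the decapping enzyme. NAM7, one of the 6, is itself deleted in upf1 and in dcr1 upf1. With CHX all 6 were higher, against 77.1% of all features, among them XRN1 (log2 2.45, SE 0.38) and the decapping enzyme gene DCP2 (1.36, SE 0.26). Without Dicer 4 were lower in the upf1 background, where NAM7 had no reads in either group and could not be called, and 6 in CHX-treated cells, against 83.9% and 87.2% of all features. These counts are near the shares over all features and show nothing particular to these genes.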

How the data were processed

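The authors deposited 1 table with a coverage signal per annotated feature and library, a normalised density of reads per nucleotide scaled to S. pombe centromeric small RNAs of 22 to 23 nt, per the labels' protocols. Per the same protocols 25 µg of total RNA received 1 µg of S. pombe RNA, and RNA under 80 nt entered a ligation-based small RNA kit. Trim Galore, Bowtie and the build ASM294v2 appear in the submitters' processing notes, with no version. For N. castellii, the build, the read lengths counted and the handling of reads with several map positions are not given in the sources. A further 5 columns with group means were left aside.

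Of 8770 entries, 92 synthetic controls with 0 reads and 271 that repeat the interval and strand of another were removed. Density times length was a whole multiple of a single step per library for 100% of entries (tolerance 0.001 reads), which gave reads. Changes were tested with limma (version 3.58.1, in R 4.3.3) after log2(density + 0.00148), over all features with a mean at or above that pseudocount, and fold changes are on that scale. To set it, the 10th percentile of densities above 0 was taken in each library, and then the median of these values. Variances followed a trend, p-values were two-sided with Benjamini-Hochberg adjustment over all features, and calls were made at 0.05. The 6 libraries with Dicer were fitted together for comparisons among them and all 10 for the Dicer comparisons. Strand balance was fitted over opposite-strand pairs in the same way without a variance trend. limma's default trend was fitted first and dropped after its values had been seen, which changed no call of the pair. An exact permutation test of 2 against 2 cannot go below p = 0.333 and was not used.

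The members and lists were chosen with earlier results of these data known. Named features are the members, those overlapping or nearest to them, the 5 features most correlated with each, the 5 densest opposite-strand pairs and a list of RNA interference and NMD genes, matched by symbol in the gene table of assembly ASM23734v1. Other features and lists are described as chosen after their values were seen. Counting errors cover counting only, since reads without molecular identifiers are not independent molecules. The procedure was tested on simulated data, where the limits set for passing were loosened after the first runs.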

Additional observations from a re-analysis of the deposited data

How the results depend on the processing

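Over 21 results and 247 alternative values, 219 kept their direction and their side of the threshold, or a count within 1.5 times. In upf1 against WT, XUT0525 turned to -1.37 with mRNA-median scaling and to -0.28 with scaling on tRNA, rRNA and snoRNA, and lay between -0.024 and 0.092 with a replicate left out. XUT0526 (-0.40) lost its call with all 10 libraries and ranged from -0.53 to -0.27 with a replicate left out. In WT CHX against WT, XUT0525 turned to -1.71 and -0.17 and XUT0526 to -1.43 and 0.11 (no call) under the same scalings, both called lower with mRNA-median scaling. XUT0526 (0.53) lost its call with all 10 libraries, and replicates left out gave 0.17 to 0.32 for XUT0525 and 0.39 to 0.66 for XUT0526. Between WT CHX and upf1, XUT0525 turned to -0.34 with mRNA-median scaling and was called. A weighted fit of recovered reads (voom in limma, chosen after the data were seen) called XUT0525 with CHX (0.24) and between WT CHX and upf1 (0.21). The strand balance gained a call with the spread following pair density, also chosen afterwards, in upf1 (0.43), between WT CHX and upf1 (-0.72) and in dcr1 upf1 (-0.48), and with a pseudocount 10 times larger between WT CHX and upf1 (-0.72) and in dcr1 upf1 (-0.68). With limma's default trend on the mean log ratio, fitted first, the pair's strand balance was not called in any comparison (adjusted p from 0.284 to 0.775). The causes were not tested.

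Features called with CHX numbered 2173 with mRNA-median scaling (770 higher and 1403 lower) and those in dcr1 CHX 3844 (1348 higher and 2496 lower). The same scaling gave 2073 higher and 1023 lower in upf1, 844 and 2422 between WT CHX and upf1, and 1645 and 3197 in dcr1 upf1. With a replicate left out, 2356 to 2596 were called between WT CHX and upf1. Pairs numbered 152 at 50% of the shorter annotation and 10 at 80% of both. A replicate block changed 1 call, that of XUT0525 with CHX (0.24, limma adjusted p = 0.0445), and no count of features by 1.5 times. The pairs called went from 2 to 0 in upf1 and from 1 to 2 between WT CHX and upf1. Replicates with the same number did not deviate together (correlations from -0.031 to 0.020). A lone replicate is assumed to vary like the other groups. Count tests with other packages were planned and not run.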
